A study of Mus musculus with 4 samples.

Results

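The genes studied were 10 integrin subunits through which cells hold on to the extracellular matrix, 7 α chains (Itga1, Itga2, Itga3, Itga4, Itga5, Itga6 and Itgav) and 3 β chains (Itgb1, Itgb3 and Itgb5). They were chosen by gene name, and every exon of these genes in the deposited exon table was taken after its identifier was matched to the GENCODE M21 annotation of the mouse genome (mm10). They account for 10 of 22823 genes and 266 of 226463 exons. RNA was sequenced from mouse embryonic fibroblasts (MEFs) and melanocytes, with 1 library per condition. The groups used here were wild-type MEFs at passage 3 (MEF), Mitf knock-in MEFs at passage 5 without doxycycline (Dox (-)), and the same knock-in MEFs at passage 5 after 6 days of doxycycline (Dox (+)). Primary melanocytes (PMel) were not analysed here. The comparison of Dox (+) with Dox (-) sets fibroblast cultures with the induced melanocyte form of Mitf, the master regulator of the melanocyte lineage, against those without induction. Only Dox (+) received doxycycline, so that the drug and the induced Mitf cannot be told apart. Both knock-in groups carry the reverse tetracycline transactivator at the Rosa26 locus, the Dox-responsive Mitf cassette downstream of Col1a1 and an mCherry transgene, and both descend from 1 targeted embryonic stem cell clone injected into host blastocysts, so that the MEFs came from chimeric embryos, which hold host cells too. The study's mCherry and puromycin resistance markers serve to purify the transgenic cells from such cultures. Wild-type MEFs differ from them in genotype, passage and culture, and these cannot be told apart.

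Integrins are cell surface receptors made of an α and a β chain. The pair decides the ligand: Itga1 and Itga2 with Itgb1 bind collagens, Itga3 and Itga6 with Itgb1 bind laminins, Itga4 with Itgb1 binds fibronectin and the adhesion molecule VCAM1, and Itga5 with Itgb1 binds the arginine-glycine-aspartate (RGD) motif of fibronectin. Itgav pairs with Itgb1, Itgb3 or Itgb5 to bind vitronectin, osteopontin and other RGD proteins. In skin, melanocytes rest on the laminin-rich basement membrane beneath the epidermis, and fibroblasts lie in the collagen-rich dermis.

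The values were RPKM, that is, reads on an exon divided by its length in kb and scaled to the aligned reads of the library. The level of a gene was its highest exon value in a library, as in the methods of the study. A pooled level, the reads over all non-overlapping exons per kb of those exons, was computed beside it. Multiplied by exon length and by a common depth, low exon values came back as whole reads (within 0.02 reads for 96.9% to 97.2% of values under 200 reads) at depths of 45000000 reads in MEF and in Dox (-) and 44000000 reads in Dox (+). Intervals below are 95% intervals of these reads and cover counting error only. With 1 library per condition there was no replicate check and no test. A gene was called different where its level exceeded 10 RPKM in either library compared and differed more than 4-fold, and counts of members called are read against the share of all genes called by the same rule. The 3 comparisons share libraries and are not independent of each other.

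Mitf served as the check of the labels and had 1.52 RPKM in MEF, 30.8 RPKM in Dox (-) and 1544 RPKM in Dox (+). Of 9 fibroblast markers, 0 were called higher and 4 lower in Dox (+) than in Dox (-), and against MEF 3 were called higher in each knock-in library and 0 lower. Lum, with 6.07 RPKM in MEF, was the only one under 10 RPKM in a library. Their summed level was 20992 RPKM in MEF, 50505 RPKM in Dox (-) and 15734 RPKM in Dox (+). In MEF and Dox (-) the sum was mostly that of Col1a1, Col1a2 and Col3a1. Of the 9 markers, 6 were higher and 3 lower in Dox (+) than in MEF. Between Dox (+) and Dox (-), 8 were lower and 1 was higher, Thy1, with 726, 2014 and 3608 RPKM in MEF, Dox (-) and Dox (+). Genes of macrophages stood out in Dox (-). Their summed level over 10 markers was 61.8 RPKM in MEF, 17078 RPKM in Dox (-) and 626 RPKM in Dox (+), and for 10 of 10 the level in Dox (-) exceeded that of both other libraries by over 4-fold. Lyz2, the lysozyme of myeloid cells, had 27.8, 10820 and 379 RPKM in the 3 libraries in that order, Csf1r had 8.10, 342 and 11.0 RPKM, Adgre1 had 0.605, 265 and 5.43 RPKM and Cd68 had 12.1, 614 and 49.2 RPKM. In such bulk samples, fewer cells of a type and less RNA per cell cannot be told apart. Coverage along genes also differed. The first and last exon of a gene were left out and the others divided at the middle. The mean value on the 5′ side was then set over that on the 3′ side. This was done for the 3997 genes with at least 12 non-overlapping exons and a level above 10 RPKM in each library. The ratio had a median of 0.675 in MEF, 0.802 in Dox (-) and 0.900 in Dox (+). MEF was thus the library most weighted to the 3′ end.

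The clearest differences between Dox (+) and Dox (-) were a higher Itgb3 and a lower Itga4, Itga1 and Itga5 in Dox (+), while Itgb1, Itgb5, Itgav, Itga6, Itga3 and Itga2 differed by at most 1.18-fold on pooled reads. None of the differences in the gene level was above 4-fold, so that 0 of 10 members were called, where 1.64% of 13300 genes were called higher and 5.41% lower. At a fold of 2, 1 member was higher, Itgb3, and 2 were lower, Itga1 and Itga4, beside 10.8% of all genes higher and 11.1% lower. The median log2 ratio of the 10 members, computed with a pseudocount of 1 RPKM, was 0.04, against 0.23 over all genes tested, whose quartiles were -0.29 and 0.64. Of the members, 2 lay above the median of all genes, Itgb3 and Itga3.

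**Figure D1:**
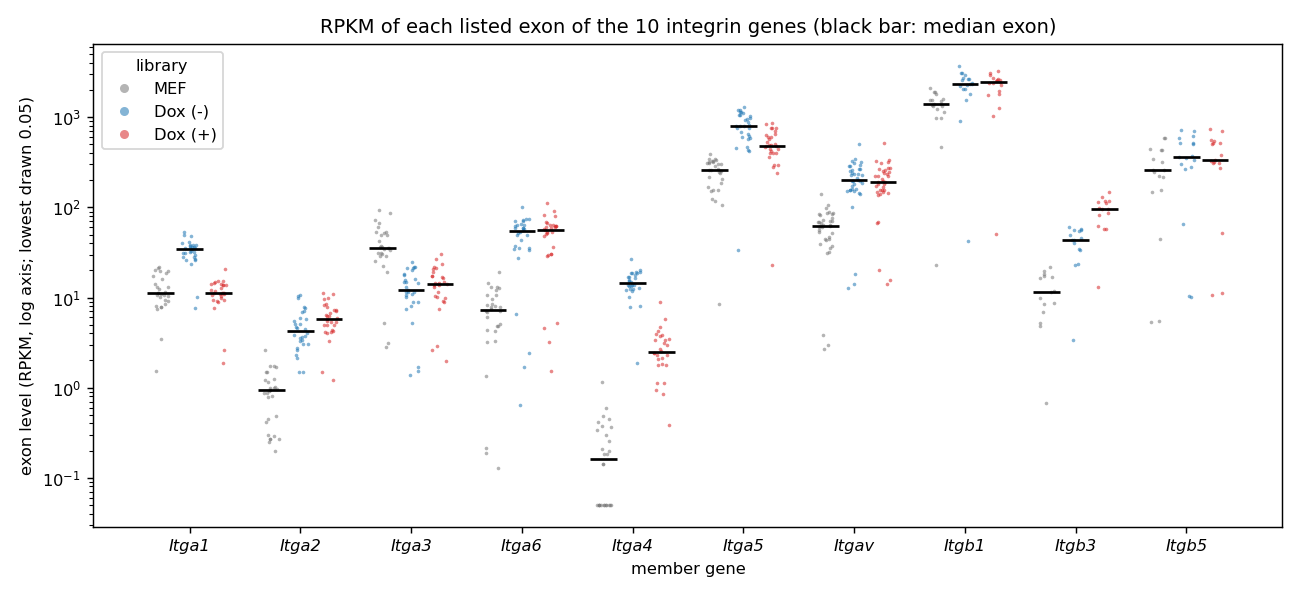
RPKM on a log axis of each listed exon of the 10 genes, 1 point per exon, in MEF (grey), Dox (-) (blue) and Dox (+) (red), with a black bar at the median exon and values under 0.05 RPKM drawn at 0.05. Itgb1 is the highest member in every library, Itga4 spans the widest range between libraries, and the median exon of Itgb3 goes from 11.5 RPKM in MEF through 43.2 RPKM in Dox (-) to 97.0 RPKM in Dox (+).

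Levels spread widely among the 10 genes within a library. By pooled RPKM, a level per length, the order in Dox (-) was Itgb1 (1998), Itga5 (609), Itgb5 (348), Itgav (138), Itgb3 (35.7), Itga6 (34.3), Itga1 (17.5), Itga3 (10.1), Itga4 (9.76) and Itga2 (3.11). The neighbours Itgb3 and Itga6, and Itga3 and Itga4, were close in that order. In Dox (+) the first 6 places were held by the same genes in the same order, and then followed Itga3 (11.0), Itga1 (5.50), Itga2 (3.57) and Itga4 (1.56), so that Itga1 and Itga4 each moved down. In MEF the order was Itgb1 (1191), Itgb5 (246), Itga5 (193), Itgav (55.1), Itga3 (32.3), Itgb3 (11.0), Itga1 (6.13), Itga6 (5.28), Itga2 (0.660) and Itga4 (0.312). Itga3 stood above Itgb3 and Itga6 in MEF and below both in the knock-in libraries. Itga5 made up 65.9%, 74.2% and 67.9% of the summed pooled level of the 7 α chains in MEF, Dox (-) and Dox (+), and Itgb1 made up 82.2%, 83.9% and 82.1% of that of the 3 β chains.

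Of the collagen-binding α chains, Itga1 (ENSMUSG00000042284), on the minus strand of chr13:114953096-115101964, pairs with Itgb1 and prefers basement membrane collagen. Its highest exon had 22.0 RPKM in MEF, 53.8 RPKM in Dox (-) and 20.9 RPKM in Dox (+). Dox (-) was therefore the high library, and MEF and Dox (+) lay close together. On pooled reads, Itga1 was 3.18-fold lower in Dox (+) than in Dox (-) (3.05 to 3.33), with 2652 against 8635 reads. The difference had the same direction on 29 of 29 exons, from 2.02-fold to 4.66-fold. Against MEF, Dox (-) was 2.86-fold higher (2.74 to 2.98) and 29 of 29 exons were higher, whereas Dox (+) was split, with 15 exons above MEF and 14 below and a pooled ratio of 0.897 (0.851 to 0.945). The first exons of Itga1 overlap an exon of the gene model Gm49395 on the same strand, whose reads cannot be separated from those of Itga1 there.

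Itga2 (ENSMUSG00000015533), its neighbour at chr13:114833081-114932100 on the same strand, is the other collagen receptor chain among the members and is known from platelets and epithelia. By pooled level it was the lowest member in Dox (-) and the lowest but Itga4 in the other libraries. Its highest exon had 2.63 RPKM in MEF, 10.6 RPKM in Dox (-) and 11.1 RPKM in Dox (+). The knock-in libraries thus lay above MEF and near each other. The pooled reads numbered 211 in MEF, 995 in Dox (-) and 1118 in Dox (+), which gives ratios of 4.72 (4.06 to 5.50) for Dox (-) to MEF, 5.42 (4.67 to 6.31) for Dox (+) to MEF and 1.15 (1.05 to 1.25) for Dox (+) to Dox (-). Although they neighbour each other on chromosome 13, Itga1 and Itga2 thus had different orders of the 3 libraries.

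The laminin-binding α chains differed from each other in the opposite way against MEF. Itga3 (ENSMUSG00000001507, minus strand, chr11:95044474-95076801) had 94.3 RPKM on its highest exon in MEF, 24.5 RPKM in Dox (-) and 30.6 RPKM in Dox (+). It was the one member that was lower in both knock-in libraries, by 3.20-fold (3.06 to 3.36) in Dox (-) and 2.94-fold (2.81 to 3.07) in Dox (+) on pooled reads, and 29 of 29 exons were lower in each. Itga6 (ENSMUSG00000027111, plus strand, chr2:71745616-71858416), whose product pairs with Itgb1 or with Itgb4, had 19.1 RPKM in MEF, 102 RPKM in Dox (-) and 111 RPKM in Dox (+). On pooled reads it was higher by 6.49-fold (6.13 to 6.89) in Dox (-) and 6.59-fold (6.22 to 6.99) in Dox (+) than in MEF, on 29 of 29 exons with at least 20 reads in both cases. Between Dox (+) and Dox (-) its pooled ratio was 1.02 (0.985 to 1.05). The pooled level of Itga3 was therefore 32.3 RPKM beside 5.28 RPKM of Itga6 in MEF, and 11.0 RPKM beside 34.8 RPKM in Dox (+). Of 6 epithelial markers, 2 were tested against MEF, Cdh1 and Krt14, and only Cdh1 was low in both knock-in libraries, as Itga3 was. Cdh1 had 21.7, 1.08 and 0.697 RPKM and Krt14 had 32.8, 2.12 and 26.9 RPKM in MEF, Dox (-) and Dox (+), the other 4 epithelial markers of the list were below 5 RPKM in each library, and the part of such cells in the Itga3 difference was not tested.

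Both laminin-binding chains exist in 2 forms, A and B, that differ in the short tail inside the cell. In each gene the coding sequence of the A form ends in an exon that carries its stop codon, and the B form skips that exon and ends in the last one. The coding part of each ending, read from mm10 by the GENCODE M21 transcripts, is printed 5′ to 3′ on the coding strand with the stop codon in capitals, since these letters are what makes the forms different. The Itga6 A ending lies at chr2:71853534-71853641 (108 bases, plus strand) and the B ending at chr2:71855854-71856015 (162 bases). The Itga3 A ending lies at chr11:95046480-95046590 (111 bases, minus strand) and the B ending at chr11:95045608-95045763 (156 bases).
Itga6 A: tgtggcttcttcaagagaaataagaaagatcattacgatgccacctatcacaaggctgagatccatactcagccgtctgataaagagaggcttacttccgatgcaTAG
Itga6 B: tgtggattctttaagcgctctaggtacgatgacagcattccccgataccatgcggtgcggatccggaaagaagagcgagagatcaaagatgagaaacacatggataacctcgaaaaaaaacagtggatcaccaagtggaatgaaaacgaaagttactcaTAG
Itga3 A: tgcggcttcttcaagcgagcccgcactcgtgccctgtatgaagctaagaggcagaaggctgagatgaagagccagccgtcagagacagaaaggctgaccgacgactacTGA
Itga3 B: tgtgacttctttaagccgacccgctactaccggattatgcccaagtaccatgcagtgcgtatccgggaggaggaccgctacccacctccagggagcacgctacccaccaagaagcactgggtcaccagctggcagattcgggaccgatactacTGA

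The exon of the A form was read in all 3 libraries in both genes. The Itga6 A exon (chr2:71853534-71853663, 130 bases, of which the last part is 3′ untranslated) had 14.4 RPKM in MEF, 63.9 RPKM in Dox (-) and 52.4 RPKM in Dox (+), from 84, 374 and 300 reads. Relative to the exon before it, which both forms share, these values were 1.20 (0.859 to 1.67), 1.07 (0.921 to 1.24) and 0.863 (0.736 to 1.01). A ratio near 1 means that the A exon was covered as deeply as the shared exon. The interval of each library included 1, and those of the 3 libraries overlapped. The Itga3 A exon (chr11:95046449-95046590, 142 bases) had 33.5, 12.2 and 9.12 RPKM, and ratios to the shared exon before it of 0.788 (0.652 to 0.951), 0.752 (0.549 to 1.03) and 0.920 (0.624 to 1.36). Set against each other, the ratio of Itga6 in Dox (+) was 0.807 of that in Dox (-) (0.651 to 0.999), with 1 just outside the interval, and for the other comparisons and for Itga3 the interval held 1. The B form has no exon of its own, because transcripts of the A form run on into the last exon in the annotation, so its share could not be read from exon values. The last exon over the same shared exon was 0.595 (0.456 to 0.787), 0.582 (0.517 to 0.657) and 0.493 (0.437 to 0.558) in Itga6 and 0.861 (0.753 to 0.988), 0.555 (0.444 to 0.701) and 0.907 (0.686 to 1.22) in Itga3. In Itga3 this ratio in Dox (-) was 0.645 of that in MEF (0.498 to 0.835) and in Dox (+) 1.63 of that in Dox (-) (1.15 to 2.33), both beyond counting error. The part of coverage along the gene in these ratios was not tested.

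**Figure D2:**
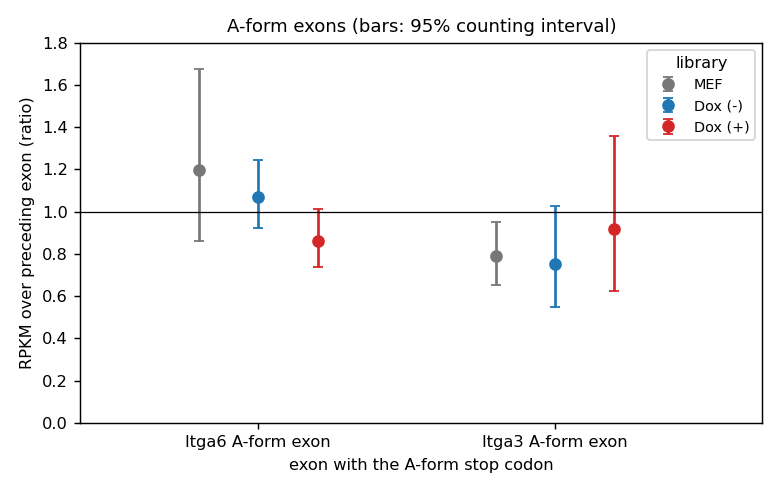
Ratio of the RPKM of the A-form exon to that of the shared exon before it, for Itga6 and Itga3, in MEF, Dox (-) and Dox (+), with bars for the 95% interval of counting error and a line at 1. The intervals of the 3 libraries overlap in both genes, and only that of Itga3 in MEF (0.652 to 0.951) leaves out 1.

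Itga4 (ENSMUSG00000027009, plus strand, chr2:79255426-79333123), the receptor chain for fibronectin and VCAM1 that is best known from leukocytes and neural crest cells, varied most over the 3 libraries, by 3.68 on the log2 scale of its level. The highest exon had 1.15 RPKM in MEF, 26.6 RPKM in Dox (-) and 8.89 RPKM in Dox (+). MEF was almost without reads, since the whole gene held 137 there beside 4290 in Dox (-) and 672 in Dox (+). On pooled reads, Dox (+) was 6.24-fold lower than Dox (-) (5.75 to 6.78), and 28 of 28 exons were lower with a median of 5.76-fold. On the highest exon, which has 46 bases and held 18 reads in Dox (+) and 55 in Dox (-), the difference was 2.99-fold (1.73 to 5.41), below the 4-fold of the call rule. Against MEF, the pooled ratio was 31.3 (26.4 to 37.4) in Dox (-) and 5.02 (4.17 to 6.07) in Dox (+). The ratios to MEF depend on the last exon, which overlaps the antisense gene Cerkl, and counting by strand is not stated in the sources used here. It held 110 of the 137 reads in MEF, against 2347 in Dox (-) and 326 in Dox (+), and the other exons together held 27, 1943 and 346 reads. Without it, a choice made after the values were seen, the ratio to MEF was 72.0 (49.3 to 109) in Dox (-) and 13.1 (8.85 to 20.2) in Dox (+), and Dox (+) was 5.49-fold lower than Dox (-) (4.89 to 6.17). The macrophage markers given above had the same order of libraries, Dox (-) above Dox (+) above MEF, their median log2 ratio of Dox (+) to Dox (-) was -4.84, and their part in the Itga4 difference was not tested.

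Among the 13580 genes that exceeded 10 RPKM in any library, those whose centred log2 levels over the 3 libraries lay nearest to Itga4 by Euclidean distance were Ecscr (0.0515), Ttyh1 (0.0909) and Ctla2a (0.103). Ecscr, an endothelial surface protein, had 7.21 RPKM in MEF, 103 RPKM in Dox (-) and 35.0 RPKM in Dox (+). Over 3 libraries such nearness describes only that these genes had the same order and similar steps.

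**Figure D3:**
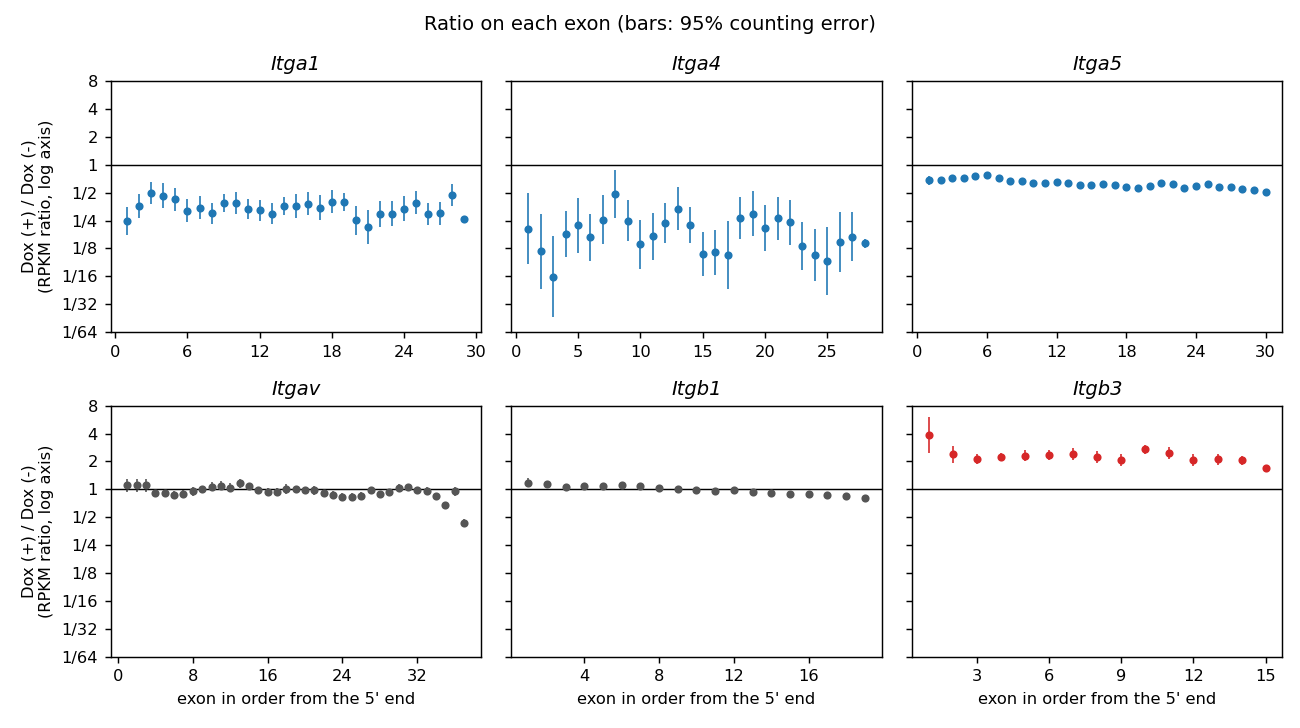
Ratio of Dox (+) to Dox (-) in RPKM on a log axis for each exon with at least 20 reads over both libraries, in order from the 5′ end, for Itga1, Itga4, Itga5, Itgav, Itgb1 and Itgb3, with bars for the 95% counting error. Every exon lies below 1 in Itga1, Itga4 and Itga5 and above 1 in Itgb3, and in Itgb1 the ratio goes down along the gene from 1.18 to 0.815.

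Itga5 (ENSMUSG00000000555, minus strand, chr15:103344286-103366763), the main fibronectin receptor chain of fibroblasts, was the highest α chain in each library. The highest exon had 395 RPKM in MEF, 1291 RPKM in Dox (-) and 869 RPKM in Dox (+). The order was Dox (-), Dox (+), MEF, with Dox (+) between the others. On pooled reads, Dox (+) was 1.66-fold lower than Dox (-) (1.65 to 1.68), on 30 of 30 exons and by between 1.28-fold and 1.96-fold. Both knock-in libraries were higher than MEF, by 3.16-fold (3.12 to 3.19) and 1.90-fold (1.87 to 1.92). The ratio of Itgb1 to Itga5, the chains of the same receptor, was 6.17 in MEF, 3.28 in Dox (-) and 5.20 in Dox (+) by pooled RPKM.

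Itgav (ENSMUSG00000027087, plus strand, chr2:83724397-83806916), the α chain of the vitronectin and osteopontin receptors, had 140 RPKM in MEF, 506 RPKM in Dox (-) and 520 RPKM in Dox (+) on its highest exon. The highest exons of the knock-in libraries were thus nearly level and both above MEF. The pooled reads placed Dox (+) 1.18-fold below Dox (-) (1.16 to 1.19), and 25 of 37 exons were lower and 12 higher. The 3′ end weighed in that sum. The last 284 bases of the gene (chr2:83806633-83806916), in the 3′ untranslated region, had 98.9 RPKM in MEF, 153 RPKM in Dox (-) and 66.9 RPKM in Dox (+), whereas the median of 30 internal exons was 63.4, 230 and 214 RPKM. The end was therefore at 1.56 of the internal level in MEF, at 0.663 in Dox (-) and at 0.312 in Dox (+). The segment at the other side of the same last exon (chr2:83803240-83803336), listed as an exon too, had 83.8, 263 and 221 RPKM. The whole last exon has 3677 bases, so that these 2 stretches are not adjacent. From MEF to Dox (-) to Dox (+) the weight of the 3′ end went down, the same direction as in the coverage along all genes. That measure leaves out last exons, and its median moved less, from 0.675 in MEF to 0.900 in Dox (+). The part of coverage in the Itgav difference was not tested.

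Among the β chains, Itgb1 (ENSMUSG00000025809, plus strand, chr8:128685654-128733200), the partner of all 7 α chains studied, was the highest member throughout. Its highest exon had 2125 RPKM in MEF, 3716 RPKM in Dox (-) and 3303.5 RPKM in Dox (+). Both knock-in libraries were above MEF on 19 of 19 exons, by 1.68-fold (1.67 to 1.69) and 1.60-fold (1.59 to 1.61) on pooled reads. Between Dox (+) and Dox (-) the pooled ratio was 0.954 (0.949 to 0.958), and 9 exons were higher and 10 lower. At this depth the interval is narrow because counting error is small, and it does not cover differences between cultures.

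Itgb3 (ENSMUSG00000020689, plus strand, chr11:104608000-104670476), the β chain of the classical vitronectin receptor and, with another α chain, of the platelet fibrinogen receptor, was the one member with a level over 2-fold higher in Dox (+) than in Dox (-). Its highest exon had 22.0 RPKM in MEF, 61.3 RPKM in Dox (-) and 148 RPKM in Dox (+). The libraries were well apart, with Dox (+) highest and MEF lowest, and the pooled reads numbered 2863, 9299 and 17727. On pooled reads, Dox (+) was 1.95-fold higher than Dox (-) (1.901 to 1.999), and 15 of 15 exons were higher, from 1.68-fold on the last exon to 3.85-fold on the first, with a median of 2.25-fold. The log2 ratio of the gene level was 1.26, or 1.03 above the median of all genes. Against MEF, Itgb3 was 3.25-fold higher in Dox (-) (3.11 to 3.39) and 6.33-fold higher in Dox (+) (6.09 to 6.59). Of 4 megakaryocyte markers tested between Dox (+) and Dox (-), 0 were called higher and 2 lower, Pf4 and Ppbp. Pf4 had 0, 94.9 and 1.37 RPKM in MEF, Dox (-) and Dox (+). The others tested were not called, and the part of such cells in the Itgb3 difference was not tested.

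Itgb5 (ENSMUSG00000022817, plus strand, chr16:33829665-33949338), the other β partner of Itgav for vitronectin, varied least of the 10, by 0.33 on the log2 scale. Its highest exon had 594 RPKM in MEF, 726 RPKM in Dox (-) and 747 RPKM in Dox (+). The knock-in libraries were 1.41-fold (1.39 to 1.43) and 1.40-fold (1.38 to 1.42) above MEF on pooled reads, and their own pooled ratio was 0.991 (0.979 to 1.00). With Itgb3 higher and Itgb5 level, the pooled ratio of Itgb3 to Itgb5 was 0.0446 in MEF, 0.103 in Dox (-) and 0.202 in Dox (+). The ratio of Itgb3 to their common partner Itgav was 0.200, 0.260 and 0.595, and that of Itgb5 to Itgav was 4.48, 2.53 and 2.95. Itgb5 RNA thus remained above Itgb3 RNA per length in every library.

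Against the library labelled MEF, the members were for the most part higher in the knock-in MEFs. In Dox (-), 3 of 10 members were called higher (Itga2, Itga6 and Itga4) and 0 lower, where 8.26% of 13227 genes were called higher and 1.21% lower. At a fold of 2 there were 7 higher and 1 lower, Itga3, beside 17.3% and 7.93% of all genes. The median log2 ratio of the members was 1.56, that of all genes 0.01, and 9 of 10 members lay above the latter. In Dox (+), 9 members passed 10 RPKM in either library, since Itga4 did not, and 3 of these were called higher (Itga2, Itga6 and Itgb3) and 0 lower, where 6.56% of 12935 genes were called higher and 3.4% lower (4.88% and 4.26% with the libraries rescaled by their median ratio). At a fold of 2 there were 5 higher and 1 lower, again Itga3, beside 20.2% and 8.98% of all genes. The median log2 ratio of the 9 members was 1.14, against 0.27 over all genes, with 7 above it. Itga2 passed the 4-fold limit narrowly, at 4.03-fold in Dox (-) and 4.22-fold in Dox (+) on its highest exons, and with the pseudocount of 1 RPKM its log2 ratios, 1.67 and 1.74, lay below it.

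**Figure D4:**
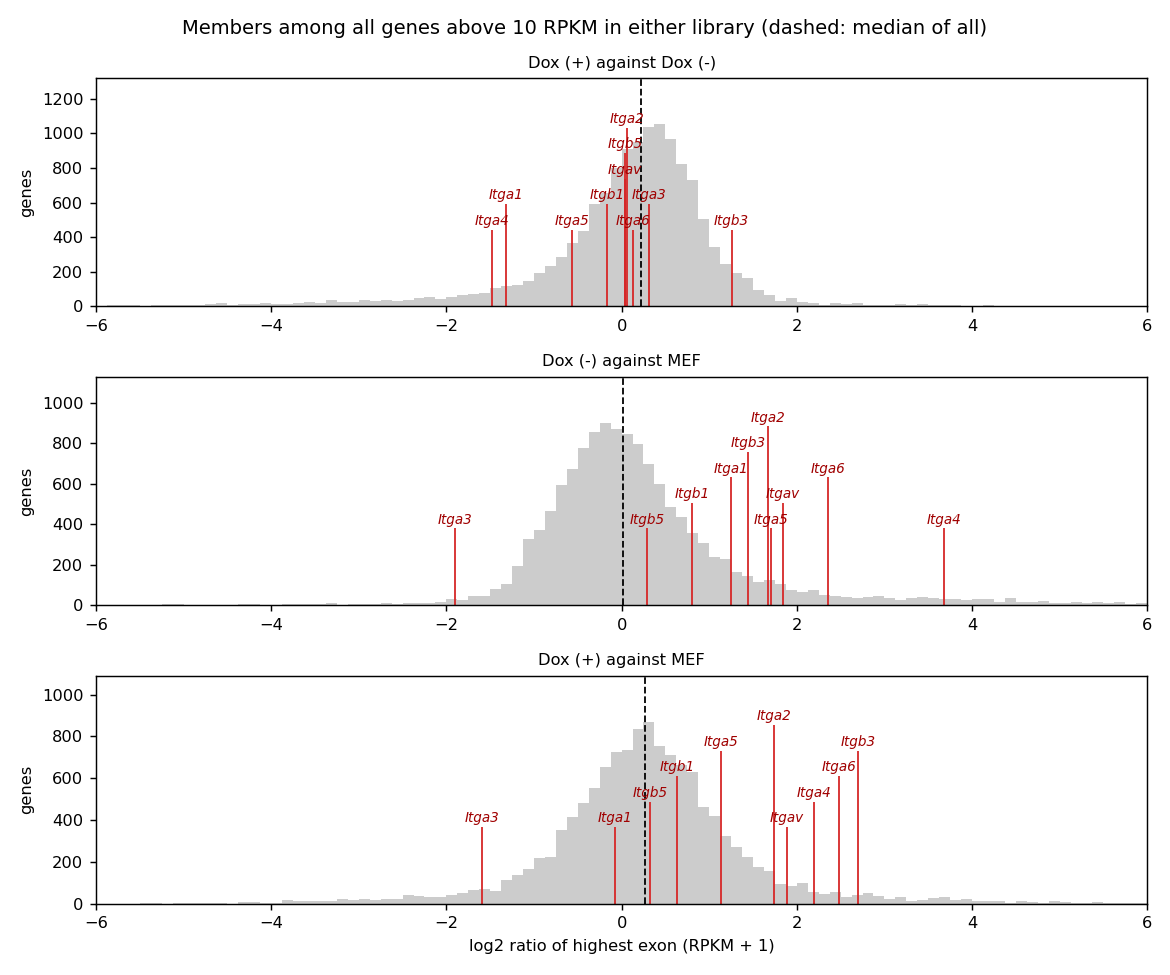
Number of genes by log2 ratio of the gene level (RPKM plus 1) in the 3 comparisons, over genes above 10 RPKM in either library, with the 10 members as red lines and the median of all genes dashed. Itgb3 lies to the right and Itga1 and Itga4 to the left in Dox (+) against Dox (-), while 9 of 10 members lie to the right of the median in Dox (-) against MEF.

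The remaining integrin subunits and the ligands were read from lists. Of 16 other integrin subunits, 8 were tested between Dox (+) and Dox (-), with 0 called higher and 3 lower, and their median log2 ratio was -1.50. The 3 were the leukocyte chains Itgam (0.150, 89.4 and 1.92 RPKM in MEF, Dox (-) and Dox (+)), Itgb2 (0.473, 91.8 and 5.64 RPKM) and Itgal (1.00, 27.2 and 1.74 RPKM), which had the order of the macrophage markers. Against MEF, Itga7, a laminin-binding chain of muscle, was called higher in both knock-in libraries, with 7.96 RPKM in MEF, 64.0 RPKM in Dox (-) and 78.8 RPKM in Dox (+). Itga8, another RGD-binding α chain, was called higher in Dox (+), with 24.2, 89.9 and 118 RPKM.

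Among the ligands, fibrillar collagens were lower in Dox (+). Of 5 tested against Dox (-), 0 were called higher and 4 lower, with a median log2 ratio of -2.23, and Col3a1 had 3320 RPKM in MEF, 10487 RPKM in Dox (-) and 847 RPKM in Dox (+). The collagen receptor chains among the members differed on pooled reads, Itga1 being lower in Dox (+) by 3.18-fold and Itga2 at a ratio of 1.15. Itga11 and Itga10, collagen-binding chains among the other integrin subunits, were not called in this comparison. Itga11 had 292, 456 and 130 RPKM in MEF, Dox (-) and Dox (+), and was 3.51-fold lower in Dox (+) than in Dox (-). Itga10 stayed under 10 RPKM, with 7.32, 7.41 and 2.39 RPKM. Of 11 laminin and basement membrane genes, 0 were called in either direction between Dox (+) and Dox (-), with a median log2 ratio of -0.67. Against MEF, Col4a1 was called higher in both, with 571, 4974 and 3136 RPKM, and Lama2 was called lower in both, with 148, 22.9 and 16.6 RPKM. Of 10 RGD or VCAM ligands tested between Dox (+) and Dox (-), 0 were called higher and 1 lower, the periostin gene Postn (1524, 7703 and 1400 RPKM), with a median of -0.86. Spp1, which encodes osteopontin, a ligand of Itgav with Itgb3, was called higher in Dox (+) than in MEF and had 67770 RPKM in MEF, 170800 RPKM in Dox (-) and 308826 RPKM in Dox (+). When set against MEF, 3 of the 10 were called higher and 0 lower in Dox (-), and 2 higher and 1 lower in Dox (+). Vcam1, the cellular ligand of Itga4, was called higher in both, with 49.3, 258 and 216 RPKM, and Npnt, which encodes a basement membrane protein with an RGD motif, was the one called lower, with 105, 33.1 and 15.8 RPKM.

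Of 26 genes of integrin activators and adhesion adaptors tested between Dox (+) and Dox (-), 0 were called higher and 2 lower. Their median log2 ratio was 0.19 beside 0.23 over all genes. Against MEF, 4 were called higher in Dox (-), 3 of 24 tested in Dox (+), and 0 lower. The 2 that were lower in Dox (+) than in Dox (-) were Fermt3, the kindlin of blood cells (0.868, 75.1 and 3.16 RPKM), and Parvg (0.0277, 23.2 and 0.411 RPKM), and again Dox (-) was the high library. Parvb, a parvin of non-blood cells, was called higher in Dox (+) than in MEF, with 20.1, 71.5 and 241 RPKM. Of 7 membrane partners of integrins, 0 were called in any of the 3 comparisons.

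Coverage along the members followed that of all genes. The ratio of the 5′ side to the 3′ side went up from MEF to Dox (-) to Dox (+) in 9 of 10 members, for example from 0.640 to 0.968 to 1.08 in Itga1 and from 0.721 to 0.788 to 0.913 in Itgb1. Itga2, with the values 0.875, 0.698 and 0.751, was the exception. The last exon relative to the median internal exon was lower in Dox (+) than in Dox (-) in 10 of 10 members, for example 0.578 against 0.738 in Itgb3 and 0.490 against 0.644 in Itgb1. The differences in Itgb3, Itga1, Itga4 and Itga5 had the same direction at both ends of the gene, as their exon counts show, while that in Itgb1 turned from higher to lower along it and that in Itgav had exons on both sides of 1, with the lowest ratio at the 3′ end.

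**Figure D5:**
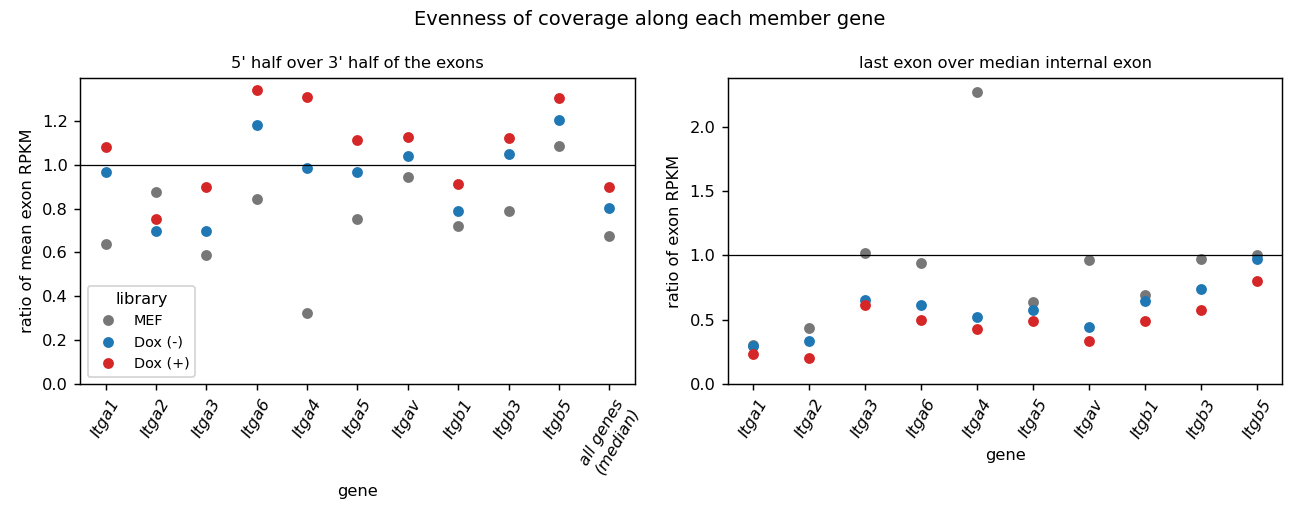
Left, ratio of the mean exon RPKM of the 5′ side of the gene to that of the 3′ side, without the first and last exon. The median marked for all genes is that of the 3997 genes with at least 12 non-overlapping exons and a gene level above 10 RPKM in each library. Right, ratio of the last exon to the median internal exon. Both are drawn for each member in MEF, Dox (-) and Dox (+), with a line at 1. The last exon is lowest in Dox (+) for every member, and the 5′ side is highest relative to the 3′ side in Dox (+) for all but Itga2.

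The promoters were searched for the E-box letters to which MITF is known to bind, in RefSeq windows (GRCm38.p6) of 250 bases before to 50 after the start site. Of the members, 8 had 9 such windows, and Itgb3 and Itga6 were not among them. CACGTG was found in 0 of 9 windows, against 7.15% of 32851 windows of all genes. CATGTG, read on both strands, was found in 1 of 9, a window of Itga3 (chr11:95069149-95069448) with its match at chr11:95069414-95069419, against 14.2% of all windows. The start site of this window is that of the exon chr11:95068712-95069198, which held 114, 30 and 42 reads in MEF, Dox (-) and Dox (+). Its inner part chr11:95068712-95068839, listed as an exon too, held 111, 30 and 42, so that almost no reads were particular to this start. The RNA of Itga3 over all its exons had a pooled ratio of 1.09 (1.03 to 1.15) between Dox (+) and Dox (-), which does not describe this start.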

How the data were processed

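Poly(A) RNA of 4 samples, 1 library per condition, was sequenced by the authors. Per the study's methods and the submitters' processing notes, reads were converted with bcl2fastq 2.17.1.14, aligned to mm10 with TopHat2 2.0.10 and counted per Ensembl exon with bedtools. The deposited values are RPKM per exon, made by the authors from these counts, exon length and the aligned reads of the library. Counting by strand is not given in the sources used here. Columns were assigned to samples by name. A further 1 value column has a name that fits no sample label and was left out, and PMel was not analysed here.

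Of 234718 listed exons, 228132 matched GENCODE M21, 6586 did not, and 226463 lay in genes of the 3 biotypes kept by the authors (protein coding, pseudogene, lincRNA). Depth was recovered as the divisor that made low values whole reads. Log2 ratios used a pseudocount of 1 RPKM, ratios of single exons at least 20 reads, and intervals a confidence level of 95%. Overlapping exons were counted 1 time in pooled reads. Intervals of pooled ratios came from the conditional binomial distribution of the reads.

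The members and gene lists were chosen with earlier results of these data known. Named are all members, Mitf, at most 4 genes called per list and comparison, the defining macrophage markers, and the 3 genes nearest to the most variable member. Itga10 and Itga11 were named beside these after their values were seen. In simulated reads for Dox (+) against Dox (-), 200 of 200 genes changed 8-fold were recovered, with 4 unchanged genes called among 12997 tested. The changed genes were chosen above the RPKM threshold of the call and only counting noise was simulated, so that recovery was nearly fixed in advance. The simulation covers neither differences between cultures nor changes under 4-fold. Python 3.11.15, pandas 2.3.3, NumPy 2.4.6, SciPy 1.17.1 and matplotlib 3.10.9 were used.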

Additional observations from a re-analysis of the deposited data

How the results depend on the processing

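No paired analysis was possible because each condition had 1 library, and for the same reason no replicate could be left out. The planned comparisons of PMel with MEF and of Dox (+) with PMel were not run. Alternatives were run for the RPKM threshold, the fold, the pseudocount, the exon or exons that stand for a gene, the scaling of the libraries and the shortest exon used. For Dox (+) against Dox (-), where 0 members were called, a fold above 2 called 3 (Itgb3, Itga1 and Itga4), and the median over the listed exons and exons of at least 100 bp each called 1, Itga4. For Dox (-) against MEF, where 3 were called, a threshold of 30 RPKM called 1 (Itga6), a fold above 2 called 8, a fold above 8 called 1 (Itga4) and reads over non-overlapping exons called 1 (Itga6, with Itga4 just under 10 RPKM at 9.76 in Dox (-)). For Dox (+) against MEF, where 3 were called, a fold above 2 called 6 and a fold above 8 called 0. Under the other alternatives these counts were between 2 and 4 against MEF, and 0 between Dox (+) and Dox (-).

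Log2 ratios of the members against MEF kept their sign under each of the 7 alternatives. Between Dox (+) and Dox (-), 12 of 70 values had another sign, those of Itgav (4), Itgb5 (4), Itga2, Itga3, Itga6 and Itgb1 (1 each), while Itgb3 stayed between 0.94 and 1.27, Itga4 between -2.20 and -1.18, Itga1 between -1.60 and -1.18 and Itga5 between -0.92 and -0.57. Rescaling the libraries by their median ratio lowered the share of calls that were higher in Dox (+) than in MEF, over all genes, from 65.8% to 53.4%. What limits these results is the single library per condition. Short exons set some gene levels, as in Itga4, and Itga2 had few reads in MEF.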

Other observations

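An internal exon of Itga6 and an internal exon of Itgb5 were below the exons before and after them in each of the 3 libraries. Both were chosen after their values were seen, without a search of all members, and first exons were left out. A 103-bp exon of Itga6 (chr2:71841644-71841746 in mm10) had 1 read in MEF, 3 in Dox (-) and 7 in Dox (+), while the exon before it had 15, 96 and 98 reads and the exon after it 38, 263 and 232. It was therefore nearly absent from Itga6 RNA, and its ratio of Dox (+) to Dox (-), 2.39, had a counting interval from 0.545 to 14.3. An exon of Itgb5 (chr16:33944104-33944204) had 44.4, 66.0 and 51.8 RPKM in MEF, Dox (-) and Dox (+), below the exon before it, with 246, 338 and 325 RPKM, and the exon after it, with 259, 374 and 318 RPKM. The low value of this exon was thus present in all 3 libraries.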
